A study of Mus musculus with 2 samples.

Results

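The genes described here are those that make, break down and read cyclic AMP (cAMP) on the way to the transcription factor CREB. The rule used gene names as printed in the array files and no measured value, though it was drawn up with earlier results of these arrays known. It took the adenylyl cyclases (Adcy), the cyclic nucleotide phosphodiesterases (Pde), the catalytic and regulatory subunits of protein kinase A (PKA; Prkaca to Prkar2b), the numbered A-kinase anchoring proteins (Akap), and Creb, Crem, Crtc and Sik genes. The rule took 63 of 34797 gene names, through 122 of 59305 non-control spots, with 1 spot per probe. By family they were 10 cyclases, 23 phosphodiesterases, 6 PKA subunits, 14 anchoring proteins and 10 CREB, CRTC and SIK genes.

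Adenylyl cyclases turn ATP into cAMP, phosphodiesterases hydrolyse cAMP and cGMP, and cAMP frees the catalytic subunits of PKA from their regulatory subunits. Anchoring proteins hold PKA at set places in the cell. PKA phosphorylates CREB and restrains the salt-inducible kinases (SIK), which otherwise keep the CRTC coactivators out of the nucleus. Crem, Sik1, Pde4b and Pde4d are textbook cAMP-inducible genes that feed back on the pathway, and the receptor for gonadotropin-releasing hormone (GnRH) is known mainly for signalling through phospholipase C and calcium.

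The data were 2 single-colour (Cy3) Agilent arrays of total RNA from GT1-7, an immortalised mouse line described as hypothalamic neurons. The vehicle array came from cells given DMSO for 30 min and the GnRH array from cells given 50 nM GnRH for 30 min, with 1 array per group and both on 1 slide. The submitters' free text names bradykinin and A549 cells for both samples, against every other label, and the treatment labels were followed. Because there is 1 array per group, no difference here has a replicate check or a test, and culture, labelling and hybridisation cannot be told apart from treatment. Of all non-control spots, 55.2% (vehicle) and 56.9% (GnRH) were well above background. The neuronal label was not borne out by Gnrh1, the defining gene, which did not pass the background limit on either array. Six6, Nhlh2 and Meis1 did not pass it either. The 7 of 11 such markers measured differed by -0.59 (Otx2) to 0.62 (Dlx5), both past 1.5-fold but dim, at 80.2 and 21.7 with vehicle. Kiss1r (81.9) and Gad1 (45.7) were also dim, while Isl1 (2457), Gal (1534) and Six3 (1115) were brighter. Gonadotrope markers were measured on both arrays for 5 of 6. With vehicle Cga read 80508, Pitx1 48204, Nr5a1 33412 and Gnrhr 14861, but Lhb 71.5, and Fshb passed on neither array. Of 26 markers of other pituitary, glial, microglial, fibroblast and endothelial cells, 10 were measured on both arrays, with differences from -0.26 to 0.23. The brightest with vehicle were Mbp (5857), Csf1r (1547), Col1a2 (1455) and Aldh1l1 (691), and the rest read from 46.6 (Aif1) to 218 (Mog). The part of such cells in the results was not tested. The immediate-early gene Fos read 114 with vehicle and 6725 with GnRH.

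Signals are the scanner software's background-subtracted intensities in arbitrary units. Differences are GnRH minus vehicle on the log2 scale after each array was set to its own 75th percentile, a step that moves every difference by 0.09, so a gene with equal raw signals reads slightly above 0. A gene counts as measured when a probe of it was well above background on both arrays, and its value is that of the brightest such probe. Errors (±) are the scanner software's own; they rest mostly on a fixed setting and hold no variation between cultures. Bulk RNA also cannot separate fewer expressing cells from less RNA per cell.

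Of the 63 genes, 56 were measured. Only 1 was at least 1.5-fold higher in the GnRH array, the phosphodiesterase gene Pde11a, and none was 1.5-fold lower. Among all 21105 measured genes 1.19% passed 1.5-fold upwards and 0.872% downwards, so 1 and 0 of 56 is near the level of the array as a whole. No gene of the pathway reached 2-fold in either direction, against 0.308% of all genes higher and 0.133% lower. The median log2 difference was 0.02 over the 56 genes and -0.01 over all genes, and 45 of the 56 (80.4%) lay within 0.2 of 0, as did 82.4% of all genes. The range ran from -0.42 for Pde6a to 0.74 for Pde11a. The 2 genes next below the 1.5-fold limit (0.58 on the log2 scale) were Pde3a at 0.51 and Sik1 at 0.48.

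**Figure D1:**
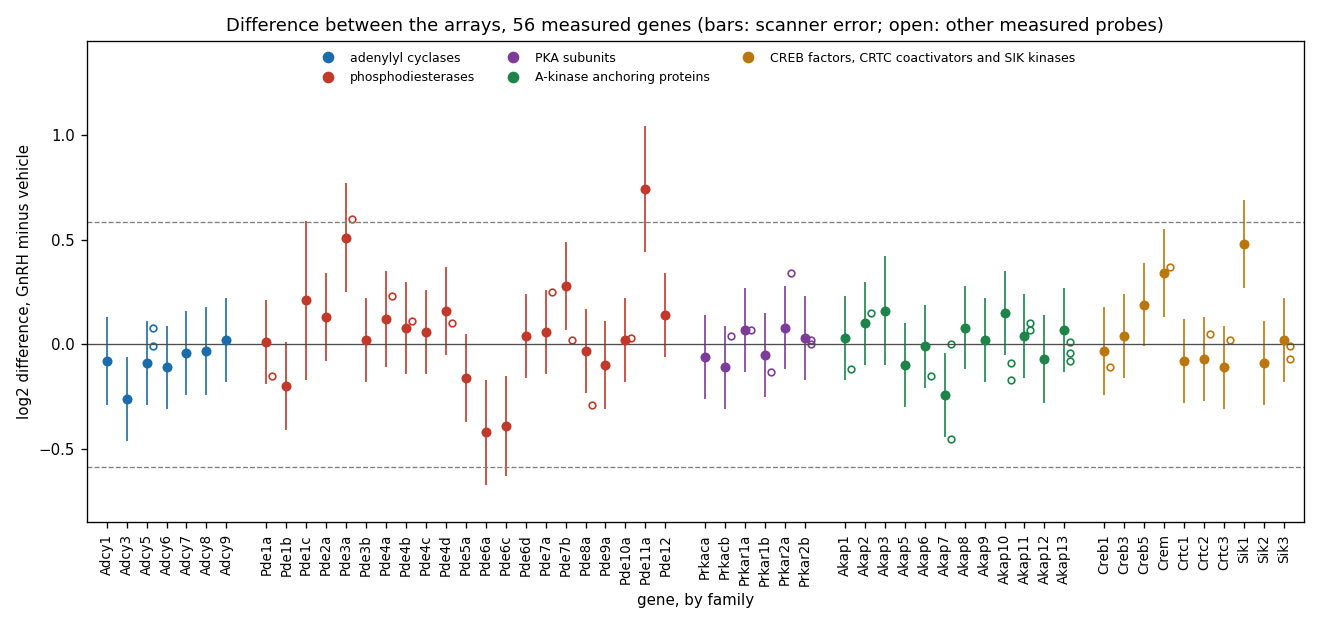
Log2 difference between the GnRH and vehicle arrays (vertical axis) for each of the 56 measured genes, grouped by family; filled points are the brightest probe with its scanner error, open points the other measured probes, and dashed lines mark 1.5-fold. Pde11a, at 0.74, is the only filled point past a dashed line; 1 open point, of Pde3a, lies at 0.60.

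Among the CREB, CRTC and SIK genes, Sik1 and Crem were higher with GnRH by more than their scanner errors. Sik1, a kinase that CREB itself induces and that restrains CRTC, read 182 with vehicle and 238 with GnRH, a 1.40-fold difference (0.48 ± 0.21) that rests on its only probe, 1 spot per array. Among all measured genes 1.95% were at least as far up as Sik1, and 0.701% of the 15828 genes outside the dimmest 25%. That class also holds far brighter genes, so 0.701% is not the share among genes of similar signal. The value of Sik1 stayed between 0.38 and 0.49 under 12 processing alternatives. Crem, whose alternative promoter gives the repressor ICER, read 216 and 256 on its brightest probe (0.34 ± 0.21) and 60.5 and 73.3 on another (0.37 ± 0.23). Both probes of Crem were higher with GnRH and differed by 0.03, while its other probes, on other transcript models, were not well above background on either array.

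The remaining genes of this family were nearly equal on the arrays. Creb1, the activator itself, read 218 and 200 (-0.03 ± 0.21), and Creb3, an endoplasmic reticulum membrane factor of another branch, read 5962 and 5756 (0.04 ± 0.20). Creb5 was bright, at 109179 and 116320 (0.19 ± 0.20). The coactivator genes Crtc1 (-0.08), Crtc2 (-0.07) and Crtc3 (-0.11) were all just below 0 on their brightest probe, with scanner errors of 0.20. Sik2 read 473 and 418 (-0.09 ± 0.20) and Sik3 6195 and 5899 (0.02 ± 0.20). A further Sik2 probe, at 10.8 and 17.2, passed the background limit with GnRH alone. The median over the 10 genes of this family was 0.00, and it lay between -0.03 and 0.01 under all alternatives.

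Probes that overlap can be compared in Sik3. Of its 3 measured probes, 2 share 55 of 60 bases, displaced by 5, and are shown by their first 30 bases, 5′ to 3′, with capitals only for the 25 bases that both printed stretches hold; the first lies at chr9:46032215-46032274 and the second at chr9:46032210-46032269 (mm9, plus strand).
Sik3 first: TAGTGACTTGGTTGGACTGTAGGAGgttgt
Sik3 second: caactTAGTGACTTGGTTGGACTGTAGGAG
The first differed by 0.02 and the second by -0.01. The spot of the second lay in a small area of the array where spots differed together; its neighbours differed by -3.71 in the median, unlike the spot itself. A spot of Akap11 lay at the widened edge of such an area, where its neighbours' median was 0.10; it gave 0.10, and the other Akap11 probes 0.04 and 0.07. The other 120 probes of the pathway lay outside such areas. Across the 27 genes with more than 1 measured probe, the gap between the highest and lowest probe had a median of 0.12, and it was under 0.2 for 22 of them. The largest gap, 0.45, was that of Akap7.

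The phosphodiesterases were the most spread family: 21 of 23 were measured, with a median of 0.06, 15 above 0 and 6 below, and 14 of 21 within 0.2 of 0. Among all 21105 measured genes, 10019 lay above 0. The median of the phosphodiesterases stayed between 0.03 and 0.06 under all alternatives. The family also held most of the pathway's dimmest genes, listed below. Whether its spread differs from that of other genes of similar signal was not tested. Pde6b and Pde8b had no probe well above background on either array. Probes of the 2 phosphodiesterase genes furthest up and of Sik1 are shown by their first 30 bases of 60, 5′ to 3′ and without capitals, since no part is compared. The exon or untranslated part each probe reads is not assigned, as no mm9 annotation was used here. They lie at chr2:75828830-75828889 (Pde11a, minus strand), chr6:141438649-141438708 and chr6:141448762-141448821 (Pde3a, plus strand) and chr17:31981255-31981314 (Sik1, minus strand), all in mm9.
Pde11a: tgtcactatggctgcttcctgtatggtact
Pde3a first: atagattggaccaatgaaaacgaccgtctc
Pde3a second: gaagctatttgtgttattttgtttgttttc
Sik1: ggaatcgtttcatttctcatgttaatgtga

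Pde11a, which hydrolyses both cAMP and cGMP, read 25.5 with vehicle and 39.8 with GnRH (1.67-fold; 0.74 ± 0.30). Its 2 other probes were not well above background on either array. Pde3a, a cGMP-inhibited cAMP phosphodiesterase, read 38.3 and 51.2 on its brighter measured probe (1.43-fold; 0.51 ± 0.26) and 35.2 and 50.0 on the other (1.52-fold; 0.60 ± 0.28). Both Pde3a probes lay above 0.5, but both were dim. In the dimmest 25% of measured genes, to which Pde11a and Pde3a belong with 6 other members of the pathway, 3.13% of genes were at least 1.5-fold higher, against 0.543% of the other genes. Those 6 were the phosphodiesterase genes Pde1c, Pde4a, Pde4b, Pde6a and Pde6c, and the anchoring protein gene Akap3. In that dim class 1.16% of genes were at least as far up as Pde11a and 4.68% at least as far up as Pde3a. With no background correction Pde11a was inside 1.5-fold, at 0.31, and with normexp correction Pde11a was at 0.27 and Pde3a at 0.13. Leaving the background in, or adding the normexp offset of 50, pulls dim genes towards 0 by construction. These values therefore cannot tell whether the differences of Pde11a and Pde3a are real. Among probes printed 10 times on the array, single spots with a signal of 20 to 80 had a median SD of 0.24 (23 probes), and those of 200 or more a median SD of 0.05 (213 probes).

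**Figure D2:**
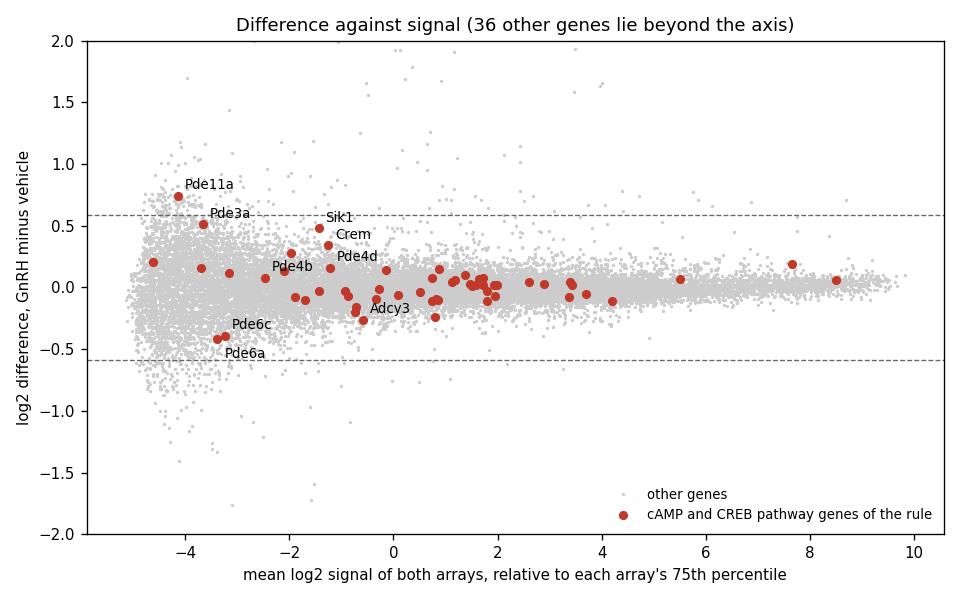
Log2 difference (vertical axis) against the mean log2 signal of both arrays relative to each array's 75th percentile (horizontal axis), for all measured genes (grey) and the 56 pathway genes (red); dashed lines mark 1.5-fold and 36 other genes lie beyond the axis. The spread of grey points widens to the left, where Pde11a, Pde3a, Pde6a and Pde6c lie, while Sik1 and Crem lie further right.

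The phosphodiesterases that prefer cAMP lay near 0 on their brightest probes, apart from Pde7b. Pde4b, a cAMP-inducible gene, read 101 and 100 on its brightest probe (0.08 ± 0.22) and 33.6 and 34.1 on another (0.11 ± 0.28). Pde4d, likewise inducible by cAMP, read 236 and 247 (0.16 ± 0.21) and 194 and 195 (0.10 ± 0.21), and a further probe, at 20.5 and 23.6, passed the background limit with GnRH alone. Pde4b and Pde4d therefore differed by less than their scanner errors on every probe measured on both arrays. Pde4a read 61.9 and 63.0 (0.12 ± 0.23), and the very bright Pde4c probe 204865 and 200564 (0.06 ± 0.20). Pde7b read 134 and 152 (0.28 ± 0.21) but 36.7 and 34.8 on its second probe (0.02 ± 0.27), so its probes disagreed by 0.26. Pde7a was at 0.06 ± 0.20 on its brightest probe and 0.25 ± 0.22 on a dimmer one, and Pde8a at -0.03 ± 0.20 and -0.29 ± 0.25. For both, the dimmer probe differed by more than its error and the brightest did not. The 7 measured genes of Pde4, Pde7 and Pde8 had a median of 0.08.

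Pde6a and Pde6c, among the phosphodiesterases that prefer cGMP, held the lowest values of the pathway. Pde6a, a rod photoreceptor subunit gene, read 64.0 with vehicle and 44.7 with GnRH (-0.42 ± 0.25), and the cone gene Pde6c read 70.6 and 50.5 (-0.39 ± 0.24). Pde6a and Pde6c were dim, and with no background correction they were at -0.12 and -0.10, a setting that pulls dim genes towards 0 by construction. Pde5a, the target of sildenafil, read 372 and 311 (-0.16 ± 0.21) and Pde9a 185 and 162 (-0.10 ± 0.21), whereas Pde6d, better known as a carrier of prenylated proteins, read 3479 and 3350 (0.04 ± 0.20). The median over these 5 measured genes, Pde6d included, was -0.16, in a class chosen after the values were seen. Among those that take both nucleotides, the calmodulin-stimulated genes Pde1a (0.01), Pde1b (-0.20 ± 0.21) and Pde1c (0.21 ± 0.38) went in no common direction, and the median over the 8 genes, Pde3a and Pde11a included, was 0.08. Pde2a read 128 and 131 (0.13 ± 0.21), Pde3b 1889 and 1799 (0.02 ± 0.20) and the striatum-rich Pde10a 2254 and 2147 (0.02 ± 0.20). Pde12, which by its sequence family acts on oligoadenylates and not on cyclic nucleotides, read 498 and 515 (0.14 ± 0.20).

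Of the adenylyl cyclases 7 of 10 were measured, and 6 of the 7 lay below 0, as did 11086 of all 21105 measured genes. Their median was -0.08, smaller in size than the scanner error of each gene, and ran from -0.11 to -0.04 under the alternatives. Adcy3, a cyclase known from olfactory neurons and primary cilia, was the lowest, at 424 with vehicle and 331 with GnRH (1.20-fold lower, -0.26 ± 0.20). Among all measured genes 5.59% were at least as far down as Adcy3, and 1.67% of the 15828 genes outside the dim class. Those 15828 include far brighter genes, so 1.67% is not the share among genes of similar signal. The calmodulin-stimulated cyclase genes Adcy1 (162 and 143; -0.08 ± 0.21) and Adcy8 (305 and 281; -0.03 ± 0.21) differed by less than their errors. So did the calcium-inhibited Adcy5 (1055 and 927; -0.09 ± 0.20) and Adcy6 (1001 and 868; -0.11 ± 0.20), and the 2 other probes of Adcy5 gave -0.01 and 0.08. Adcy7 read 834 and 759 (-0.04 ± 0.20), and Adcy9, the membrane-bound cyclase least sensitive to forskolin, 1725 and 1642 (0.02 ± 0.20). Adcy2, Adcy4 and Adcy10, the soluble cyclase that bicarbonate activates, were not well above background on either array.

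All 6 PKA subunit genes were measured, and all 6 lay within 0.2 of 0. The catalytic subunit genes Prkaca and Prkacb read 626 and 560 (-0.06 ± 0.20) and 10957 and 9525 (-0.11 ± 0.20). The type I regulatory gene Prkar1a read 25727 and 25373 (0.07 ± 0.20), with the same difference of 0.07 on its second measured probe, and Prkar1b read 7639 and 6917 (-0.05 ± 0.20). The type II genes Prkar2a and Prkar2b read 939 and 926 (0.08 ± 0.20) and 4242 and 4050 (0.03 ± 0.20). A dim second probe of Prkar2a, at 48.0 and 57.0, gave 0.34 ± 0.25. The family median was -0.01 and changed sign between alternatives, from -0.04 to 0.01.

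Among the anchoring proteins 12 of 14 were measured, with a median of 0.03 that turned to -0.02 with the mean over probes. Akap14 passed the background limit on neither array. Akap4, a sperm-tail protein gene, passed that limit with vehicle alone, on a single dim probe (19.7 and 13.9; -0.41 ± 0.45). Taking as its GnRH level the dimmest signal that passed there gives 1.32-fold lower with GnRH. The probe's difference was smaller than its scanner error, so a lower level of Akap4 is not shown. Akap7, which tethers PKA near ion channels, was lowest, at 1096 and 871 (-0.24 ± 0.20), but its probes did not give 1 value. They lie at chr10:24888897-24888956 (brightest), chr10:25003766-25003825 (5′-most of the measured probes) and chr10:24889928-24889987 (dimmest), all on the minus strand in mm9, and their first 30 bases are given to show that they read separate stretches.
Akap7 brightest: gtattcctttatacggccctacgttttcat
Akap7 5′-most: cccaaagagaagcaaagaagaagaagaaga
Akap7 dimmest: atgcctggtaaagtgtttatgaactctcag
The 5′-most probe read 969 and 665 (1.36-fold lower; -0.45 ± 0.20), while the dimmest read 742 and 696 (0.00 ± 0.20). The difference of Akap7 is therefore not shared by all of its probes. Akap10 also split, at 0.15 ± 0.20 on its brightest probe and -0.09 and -0.17 on dimmer ones. Akap3, a sperm fibrous-sheath gene, was dim, at 42.4 and 44.4 (0.16 ± 0.26). In the dim class 27.9% of genes were at least as far up as Akap3. Akap5, the postsynaptic scaffold of PKA and calcineurin, read 1087 and 947 (-0.10 ± 0.20). Akap12, a scaffold known as gravin, read 324 and 289 (-0.07 ± 0.21). The centrosomal and Golgi scaffold gene Akap9 (0.02), the mitochondrial Akap1 (0.03), the nuclear Akap8 (0.08), the muscle and neuronal Akap6 (-0.01) and Akap2 (0.10), which RefSeq now lists under Pakap, filled the narrow range between.

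The rest of cAMP signalling gave much the same picture, and inducible genes did not. A list of 53 other cAMP signalling genes (G proteins, PKA inhibitors, EPAC exchange factors, CREB cofactors and others) had 44 measured members, with a median of -0.01 and a range from -0.37 to 0.24. None of the 44 was 1.5-fold higher or lower, near the level of all measured genes (1.19% higher and 0.872% lower). The members furthest from 0 were Ppp1r1b (-0.37 ± 0.33), Gnal (0.24 ± 0.24) and Pde6g (0.22 ± 0.22). Popdc2 (-0.20 ± 0.26) and the EPAC gene Rapgef3 (-0.18 ± 0.20) followed, and the stimulatory G protein gene Gnas read 72102 and 63230 (-0.09 ± 0.20). By contrast, a list of 30 inducible genes with known CREB binding had 23 measured members with a median of 0.60. Of the 23, 12 were at least 1.5-fold higher, against 1.19% of all measured genes, and 10 at least 2-fold, against 0.308%. These were led by Egr1 (8.47 ± 0.22), Fosb (6.36 ± 0.22), Fos (5.98 ± 0.07, the mean of repeated spots), Junb (3.31 ± 0.23) and Arc (2.96 ± 0.20). Such genes also take inputs other than CREB, and this list was drawn up with earlier results of these arrays known, so its direction is no independent evidence. Sik1 (0.48) and Crem (0.34), known inducible genes as well, lay below that list's median of 0.60 and between its quartiles of 0.19 and 2.46. Pde4b (0.08) and Pde4d (0.16) lay below the lower quartile. Given how the list was drawn up, these places are descriptive only.

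**Figure D3:**
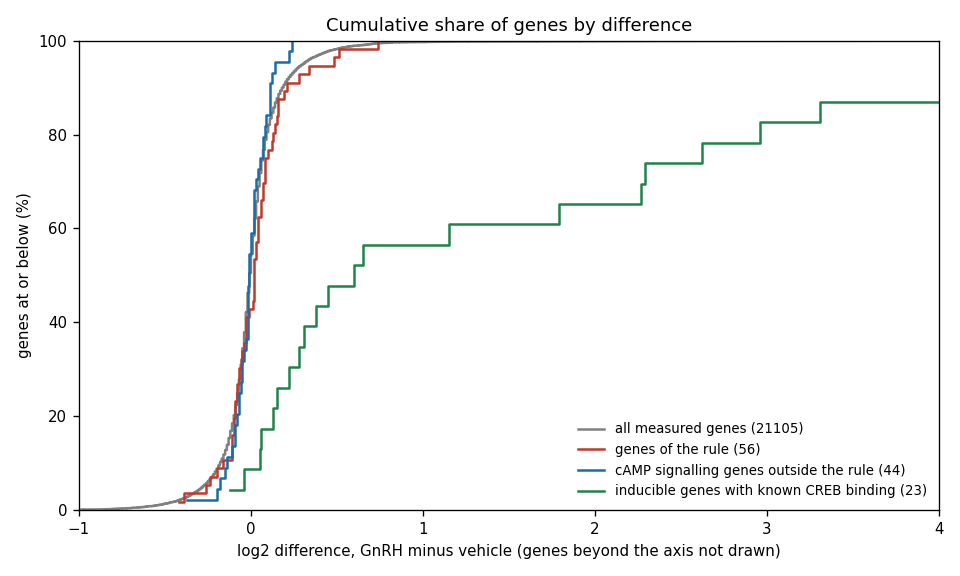
Cumulative share of genes (vertical axis, percent) by log2 difference (horizontal axis) for all 21105 measured genes, the 56 pathway genes, 44 other cAMP signalling genes and 23 inducible genes with known CREB binding. The pathway genes and the other cAMP signalling genes run close to all genes around 0, and the inducible genes, with a median of 0.60, run far to the right.

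CREB binds the cAMP response element, whose full form is TGACGTCA and whose core is TGACG, and these letters were looked for on both strands of promoter windows from RefSeq (GRCm38.p6), each from 250 bases before to 50 after a gene's start. Every full element also counts as a core. Of the 63 genes, 50 had at least 1 window, 93 in all. Stretches of at most 30 bases are given 5′ to 3′ on the gene's strand, with the element in capitals, for both genes with a full element and for Pde4b, the cAMP-inducible gene with a core. They lie at chr6:53287247-53287276 (Creb5), chr11:109650889-109650918 (Prkar1a) and chr4:102421510-102421536 (Pde4b), all on the plus strand.
Creb5: ggaatcccacgTGACGTCAccgggggggtg
Prkar1a: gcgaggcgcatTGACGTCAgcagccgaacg
Pde4b: atttggctgcaCGTCAattttctcatc
The element began 45 bases before the start in Creb5, 49 in Prkar1a and 34 in Pde4b, where it lies on the opposite strand. A full element also falls after another annotated start of Prkar1a, and whether it is the same site was not determined. Creb5 differed by 0.19 ± 0.20, Prkar1a by 0.07 ± 0.20 and Pde4b by 0.08 ± 0.22, none more than its scanner error.

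A full element occurred in 3 of the pathway's 93 windows (3.23%) and 1.79% of all 32851 windows. The 3 windows came from 2 genes, Creb5 and Prkar1a, so Prkar1a counts more than once. Counted by gene, 2 of 50 (4%) had a full element, against 2.03% of all genes of the table. The core occurred in 20.4% of the pathway's windows and 20.8% of all windows. Counted by gene, 17 of 50 (34%) had a core in at least 1 window, against 23% of the 27025 genes of the table, which have fewer windows per gene. The inducible list had a core in 69.7% of its windows and in 21 of 24 genes, but it was chosen for known CREB binding, so a high share was built in. The list of other cAMP signalling genes had a core in 42.2% of its windows and in 21 of 39 genes. Its 18 measured genes with a core had a median difference of -0.00. Within the pathway the 16 measured genes with a core had a median difference of 0.02 and the 27 without 0.03, against -0.00 and -0.01 over all genes with and without it. Sik1 and Crem were not among the genes with a window. These matches describe sequence only, in a short window, and bear on no factor's binding.

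**Figure D4:**
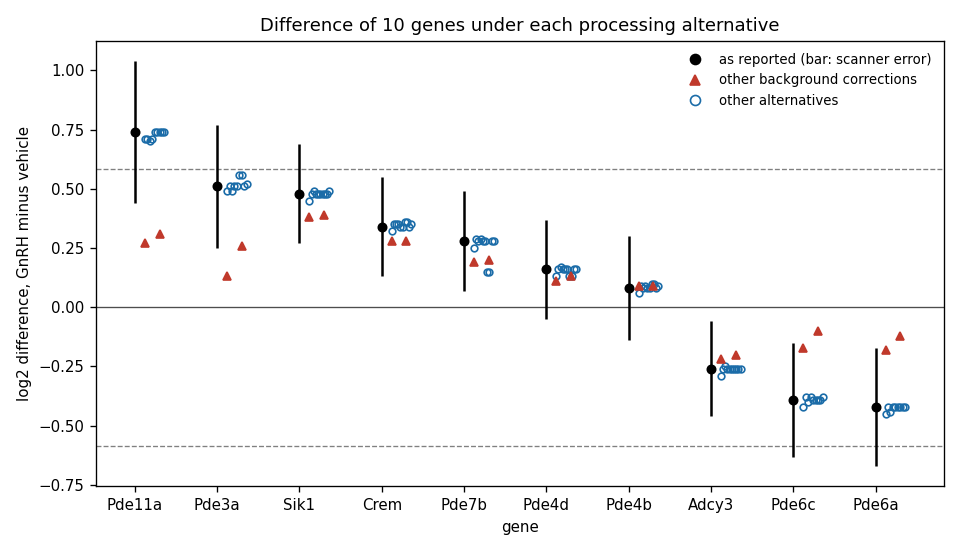
Log2 difference (vertical axis) of 10 pathway genes as reported (black, with scanner error) and under each processing alternative (triangles for other background corrections, open circles for the rest); dashed lines mark 1.5-fold. Sik1 stays between 0.38 and 0.49 and Crem between 0.28 and 0.36, while Pde11a, Pde3a, Pde6a and Pde6c move towards 0 when the background correction is changed. Those other corrections leave background in the signal or add an offset, which pulls dim genes towards 0 by construction.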

How the data were processed

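The authors deposited 2 scanner files of linear intensity values and a value table. Background subtraction and detrending were done within each array by Feature Extraction, in version 10.7.1.1 per the file headers and 9.5.1.1 per the submitters' processing notes. The deposited value table holds intensity values with columns of equal median (28.44), whose between-array method is not given in the sources used here; its probe differences correlated at 0.998 with those of the scanner values.

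Control and outlier spots were left out, log2 processed signals were scaled to each array's 75th percentile, and the brightest probe well above background on both arrays gave a gene's value. Of 122 probes, 104 matched a RefSeq accession and 2 of those, of Akap2, had another symbol. Genes were counted at 1.5-fold and 2-fold. The single array per group allowed no test. The members and lists were chosen with earlier results of these data known. The naming rule took Pde4b, Pde4d, Crem and Sik1, genes past 1.5-fold, the 10 furthest in each direction and each family's extremes; other genes, Akap7's probes and the phosphodiesterase classes were chosen after their values were seen. Areas were sets of at least 4 spots whose neighbours within 2 rows and columns had a median difference of 0.3 or more in size, widened by 2 spots (3 areas, 582 spots). Alternatives used limma 3.58.1 (normexp, offset 50) and statsmodels 0.14.6 (lowess, fraction 0.3); the steps were tested on simulated data. Probe coordinates are mm9.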

Additional observations from a re-analysis of the deposited data

How the results depend on the processing

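The count of 1 gene at least 1.5-fold higher was 0 under either other background treatment (normexp with quantile normalization, or none), 0 with the stricter filter, which leaves Pde11a out, and 0 at 3-fold; it was 1 under the other alternatives. The counts of 0 at 1.5-fold lower, at 2-fold and for bounds of 1.5-fold were 0 throughout. The median of 0.02 over measured genes ran from -0.01 to 0.03. Of 270 values of 23 named genes under 12 alternatives, 6 moved by more than the scanner error: Pde11a, Pde3a, Pde6a and Pde6c with another background correction, and Akap10 with the median over probes (-0.09). The cause of these moves was not tested. Signal over background limits the dim genes. No paired analysis was possible because each group has 1 array.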
